A study of Mus musculus with 168 samples.

Results

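This account describes 34 single cells of the old mouse subventricular zone in which Hsd11b1 was abundant, set against 72 cells of the same sort in which it was not found. The subventricular zone (SVZ) is the wall of the lateral ventricle where adult neural stem cells live. Of 150 single cells in the series, 133 came from the SVZ, 13 from the striatum and 4 from the cortex. The members were chosen by measured values: each SVZ cell was rescaled to a total of 1000000 TPM (a transcript abundance corrected for gene length and library total), and cells with less than 5% of their TPM in ribosomal protein genes were kept, a share that is low in resting cells. Among these, 34 cells at 50 TPM or more of Hsd11b1 formed the high group and 72 cells below 1 TPM the negative group. Because Hsd11b1 defined the groups, its own difference is no result and is left out below. The limits fell in a wide gap, since the lowest cells inside the high group had 80.5 and 106.56 TPM, 1 cell between the limits had 5.79 TPM and was left out, and the highest negative cells had 0.60 and 0.53 TPM. In the negative group 60 cells were listed at exactly 0.

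The study profiled neural stem cells and astrocytes of old mice by Smart-seq2, a plate method that amplifies full-length cDNA of 1 cell at a time. All SVZ cells came from male C57BL/6 mice, untreated as far as the labels say, labelled 23 months old, while the protocol text gives 22 months and pools of 4 old mice for each replicate. The striatum and cortex cells, given below for comparison, are labelled astrocytes of 25 months. Cells positive for GLAST and CD133 and negative for CD45 and O4 were sorted and picked by hand, so both groups share this gate. The cell names form the series ogp and ogp2, and the labels do not say what separates them, and no animal is named for any cell. Each group therefore counts as 1 sample, no test between the groups was possible, and every SD and interval below describes the spread or the counting error over cells, not over mice.

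Hsd11b1 encodes 11β-hydroxysteroid dehydrogenase type 1, an enzyme of the endoplasmic reticulum that turns inactive 11-keto glucocorticoids back into corticosterone in mice. It draws its NADPH from hexose-6-phosphate dehydrogenase (H6pd), whose substrate is brought in by the glucose-6-phosphate transporter Slc37a4, and its product acts through the glucocorticoid receptor Nr3c1 and the mineralocorticoid receptor Nr3c2. Quiescent stem cells of the SVZ are astrocyte-like cells that divide rarely and, like astrocytes, make cholesterol and apolipoproteins.

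High cells made up 31.8% of all quiescent SVZ cells (exact 95% interval 23.1% to 41.5%). The share was 30% in ogp (17.9% to 44.6%) and 33.3% in ogp2 (21.4% to 47.1%), with 15 and 19 high cells. These intervals overlap but cover counting error over cells only, and a difference between the series was not tested. All 26 SVZ cells above the ribosomal limit were negative. The number of genes detected at 1 TPM or more ran from 2066 to 5782 (median 3332) in high cells and from 1937 to 4791 (median 3245.5) in negative cells, and the ranges overlapped widely. Within the series the median was higher in high cells, at 3658 against 3401 in ogp and 3075 against 2898 in ogp2. The part of this in the detection counts and mean logs below was not tested. TPM keeps no read depth, so the depth of each cell is unknown. The ribosomal protein share had medians of 1.71% and 1.72%. The deposited columns of 4 negative ogp cells summed to less than 900000, none in the high group, and no 2 SVZ columns were identical.

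Few cells of either group had genes of dividing cells or neuroblasts. Mki67 or Top2a, genes of dividing cells, was detected in 1 of 34 high and 2 of 72 negative cells, and Dcx, a neuroblast gene, in 1 of 34 and 0 of 72 (upper end of the exact 95% interval 4.99%, for cells in which it was detected). The 21 genes listed for quiescent stem cells and astrocytes took a median of 14.7% of a high cell's TPM and 13.8% of a negative cell's. The ranges were wide, from 1.96% to 21.1% in high cells and from 2.67% to 21.9% in negative cells. Apoe, the main lipid carrier of astrocytes, averaged 36395 TPM in high cells and 37823 TPM in negative cells and was present in every cell of both. The markers of other cell types took little of the TPM. The 15 microglial genes had a median of 0.0082% in high cells (highest 0.084%) and 0.00004% in negative cells (highest 0.476%), and 11 and 7 of them were below 1 TPM in every cell of the group. The 16 oligodendrocyte lineage genes had medians of 0.022% and 0.034% (highest 0.817% and 0.848%), and the 16 neuronal genes 0.038% and 0.032%. Ependymal genes had medians of 0.021% in both groups, and of 16 endothelial and mural genes 14 were below 1 TPM in every cell of each. A single negative cell was at 50 TPM or more of the microglial complement gene C1qb, with 3762 TPM. The part of these markers in the results below was not tested.

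Genes were compared as log2 of the ratio of group mean TPM, with 1 TPM added to each mean, which understates low genes. Of 8812 genes at 10 TPM or more in either group, 874 were at least 2-fold higher in high cells (9.92%) and 1375 at least 2-fold lower (15.6%), and the median over all genes was -0.08. This split depended on the measure: with the mean of log2 values per cell in place of the log of means, 574 genes were higher and 282 lower, and without each gene's highest cell in each group 486 were higher and 1613 lower. Few of these genes stood apart in both series. In each of ogp and ogp2, 292 genes were at least 2-fold higher (3.31%) and 632 at least 2-fold lower (7.17%), while 376 genes were 2-fold higher in ogp and 2-fold lower in ogp2, and 360 the reverse. Across the 8812 genes, which are not independent replicates, the log2 differences in ogp and ogp2 correlated with Pearson's r of 0.05 (Spearman's rho 0.05). Abundant genes differed less: of 842 genes at 200 TPM or more, 5 were 2-fold higher and 9 lower. A gene that reached 10 TPM in 1 group alone could only come out higher in that group. With 10 TPM needed in both groups, 4.79% of 6703 genes were 2-fold higher in high cells and 6.65% lower.

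Genes were named where the higher group averaged 50 TPM or more, at least 50% of its cells had the gene, and the difference reached 2-fold in the same direction pooled, in ogp and in ogp2, with the mean of logs on the same side. Only 7 genes met this in the higher direction and 8 in the lower one. Since the rule required it, the like direction in ogp and ogp2 is no separate support for these genes.

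Ubac2, an endoplasmic reticulum protein with a ubiquitin-binding domain (ENSMUSG00000041765, chr14:121878620-122021034, GRCm38), ran from 0 to 596 TPM with a median of 125 in high cells, and from 0 to 560.0 with a median of 0 in negative cells. Its means were 159 ± 181 TPM (SD, 34 cells) and 65.9 ± 127 TPM (72 cells), a log2 difference of 1.26. It was detected in 21 of 34 high cells (61.8%, exact 95% interval 43.6% to 77.8%) and 22 of 72 negative cells (30.6%, 20.2% to 42.5%). The difference was 1.18 in ogp and 1.42 in ogp2, and single cells of the groups overlapped throughout.

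Eif3e, a subunit of the translation initiation factor eIF3 (ENSMUSG00000022336, chr15:43250058-43282719), had medians of 54.8 TPM in high and 0 in negative cells, with highest values of 968 and 624 TPM. It was detected in 20 of 34 against 21 of 72 cells, and the log2 difference of 1.09 was 1.16 in ogp and 1.03 in ogp2. Thrsp, a lipogenesis gene that responds to thyroid hormone (ENSMUSG00000035686, chr7:97412938-97417730), had medians of 50.2 and 0 TPM and was found in 18 of 34 and 26 of 72 cells. Its mean of 408 TPM against 121 TPM leaned on 1 high cell at 7849.5 TPM: the log2 difference of 1.75 was 0.81 without each group's highest cell and -0.23 in the cells between the quartiles of detected genes. Irak2, a kinase of interleukin-1 and Toll-like receptor signalling, averaged 70.01 and 28.8 TPM, a difference of 1.25 that shrank to 0.03 between those quartiles. The remaining 3, named although the rule leaves predicted genes out, were Gm14305, Gm14325 and Gm4724 on chromosome 2, with log2 differences from 1.18 to 1.42. Their symbols mark predicted genes of a region rich in similar copies, so how reads were divided among them is uncertain.

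Lower in high cells came first Igfbp5, a secreted binder of insulin-like growth factors (ENSMUSG00000026185, chr1:72857932-72874884). It ran from 0 to 189 TPM (median 0.035) in high cells and from 0 to 432 TPM (median 15) in negative cells. It was detected in 11 of 34 (32.4%, exact 95% interval 17.4% to 50.5%) and 41 of 72 cells (56.9%, 44.7% to 68.6%), with a log2 difference of -1.52, or -1.02 in ogp and -2.23 in ogp2. Between the quartiles of detected genes it was -0.66. Ndn, the imprinted gene of the growth suppressor necdin (ENSMUSG00000033585, chr7:62346569-62350262), averaged 70.7 TPM in high and 185 TPM in negative cells. It was found in 11 of 34 and 36 of 72 cells, with differences of -1.11 in ogp and -1.68 in ogp2.

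The other 6 were Aurkaip1, Brd9, Crtc3, Zranb2, Cflar and Nmrk1. Brd9, a subunit of a BAF chromatin remodelling complex (chr13:73937811-73960895), averaged 15.1 and 62.1 TPM, and its highest value was 137 TPM in high and 511 TPM in negative cells. Crtc3, a coactivator of CREB (chr7:80586627-80688877), averaged 15.3 and 60.0 TPM, with 3 high and 22 negative cells at 50 TPM or more. Cflar, an inhibitor of caspase-8, and Nmrk1, a kinase of nicotinamide riboside on the way to NAD, were traces in most cells of both groups. Their medians were 1.19 and 2.72 TPM and 3.46 and 3.70 TPM. Their means were 18.3 against 55.997 TPM and 24.8 against 78.5 TPM, with 14 negative cells each, and 4 and 3 high cells, at 50 TPM or more. Aurkaip1 and Zranb2 had log2 differences of -1.47 and -1.36.

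**Figure D1:**
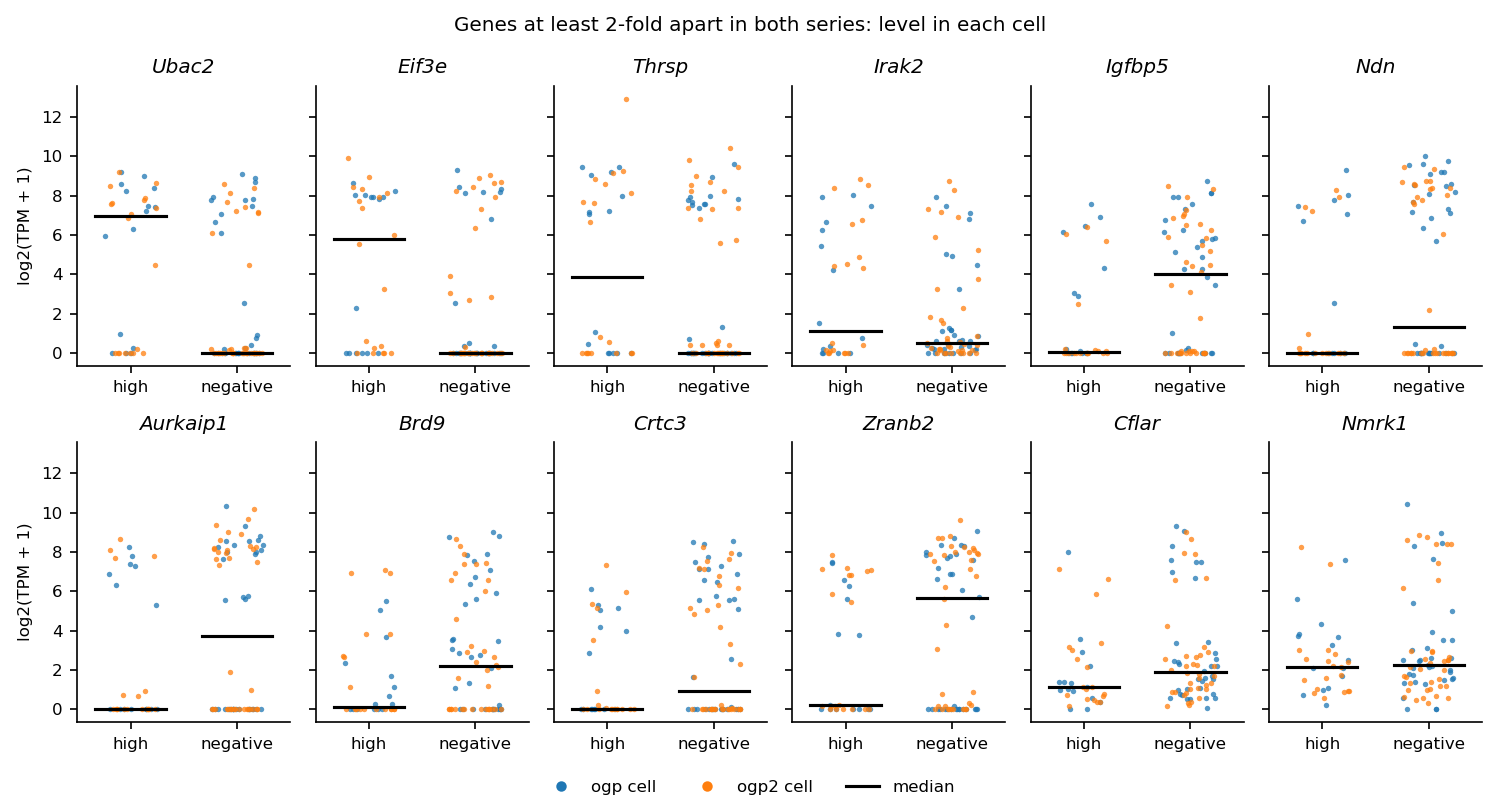
Level of the 12 named genes in each cell, as log2(TPM + 1), for 34 high and 72 negative cells; points are cells coloured by series and the bar is the median. Cells of both groups lie near 0 and at high values for every gene, and the groups overlap throughout. Ubac2 was found in 21 of 34 high and 22 of 72 negative cells.

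Besides Hsd11b1, the genes Slc14a1 and Gpr146 were given as markers of the high cells. Slc14a1, a urea transporter of astrocytes, had a median of 59.3 TPM in high and 0.05 TPM in negative cells, and was detected in 20 of 34 and 28 of 72. Its log2 difference of 1.08 was 1.87 in ogp2 (means of 198 and 53.5 TPM) and 0.10 in ogp. Gpr146, a receptor linked to plasma cholesterol, averaged 98.0 and 69.002 TPM, with a log2 difference of 0.50 (0.57 in ogp and 0.49 in ogp2). It was found in 18 of 34 and 32 of 72 cells. Its detection went opposite ways in the series: 12 of 15 high and 16 of 35 negative cells of ogp, but 6 of 19 and 16 of 37 of ogp2. The exact intervals of the pooled shares overlapped for both genes (40.7% to 75.4% against 27.6% to 51.1% for Slc14a1, and 35.1% to 70.2% against 32.7% to 56.6% for Gpr146).

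The genes that supply the enzyme's cofactor were detected in few cells. H6pd was detected in 2 of 34 high and 1 of 72 negative cells and fell under the level needed for comparison. Slc37a4 was found in 10 of 34 and 11 of 72 cells, and averaged 60.9 and 32.2 TPM. The means were 62.7 and 2.04 TPM in ogp but 59.4 and 60.7 TPM in ogp2, so the pooled difference of 0.90 was present in ogp alone. The receptor Nr3c1 averaged 20.8 TPM in high and 40.7 TPM in negative cells, with log2 differences of -1.11 in ogp and -0.86 in ogp2, and was detected in 10 of 34 and 25 of 72 cells. Nr3c2 averaged 47.7 and 47.2 TPM. Of 13 genes of glucocorticoid supply, receptors and their chaperones, 0 were 2-fold higher and 1, the coactivator Ncoa2, was 2-fold lower (8.84 against 22.1 TPM), beside 9.92% and 15.6% of all genes, with a median of -0.02 (0.11 by mean logs).

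Genes that glucocorticoids are known to induce showed no common direction: of 25 compared, 2 were 2-fold higher and 4 lower, beside 9.92% and 15.6% of all genes, and their median was -0.09. Tsc22d3, the leucine zipper protein GILZ, had medians of 405 TPM in high and 282 TPM in negative cells and reached 3026 and 2052 TPM. It was found in 30 of 34 and 55 of 72 cells, and its log2 difference was 0.67, with 0.41 in ogp and 0.69 in ogp2. Klf9, a transcription factor, averaged 58.9 and 38.1 TPM, with -0.07 in ogp and 0.77 in ogp2. Going the other way were Pdk4, the kinase that shuts pyruvate out of the mitochondrion (19.1 against 46.7 TPM, 4 of 34 against 24 of 72 cells), and the phosphatase Dusp1 (34.5 against 78.3 TPM). The 2 genes above 2-fold were Hif3a, at 20.8 and 8.70 TPM and in 8 of 34 and 12 of 72 cells, and Cebpb, at 17.4 and 4.15 TPM and in 3 of 34 and 6 of 72 cells. Mt1 and Glul, abundant in all cells, differed by -0.10 and -0.09. Fkbp5 was at 1 TPM or more in 1 cell of each group, and Sgk1 in 0 of 34 and 3 of 72 cells, so these classic targets were too low to compare.

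Sterol synthesis genes leaned higher in high cells. Of 29 genes listed for cholesterol synthesis and lipid export, 21 were above 0 and 5 were at least 2-fold higher (17.2%, beside 9.92% of all genes), and 1 was 2-fold lower. The list's median was 0.37, against -0.08 for all genes, with 0.13 in ogp and 0.58 in ogp2, and 15 of 29 were above 0 in both series, while 21.1% of all genes were. Among the genes above 2-fold were the enzymes Idi1, Mvd, Hsd17b7 and Ebp.

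Idi1, which isomerizes the isoprene unit of the pathway, ran from 0 to 1068 TPM (median 209.8) in high cells and from 0 to 647 TPM (median 0.3) in negative cells, with means of 282 ± 285 and 119 ± 168 TPM (SD over cells). It was in 23 of 34 (67.6%, exact 95% interval 49.5% to 82.6%) and 35 of 72 cells (48.6%, 36.6% to 60.7%). Its log2 differences were 1.84 and 0.89 in the series. Idi1 thus stood higher among high cells in each series, more so in ogp, while the cells of the groups overlapped.

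Mvd, the decarboxylase that precedes Idi1, averaged 154 and 67.1 TPM and was found in 14 of 34 and 20 of 72 cells, with 1.37 in ogp and 1.05 in ogp2. Hsd17b7, a late enzyme that reduces a sterol ketone, was found in 10 of 34 (29.4%, exact 95% interval 15.1% to 47.5%) and 6 of 72 cells (8.33%, 3.12% to 17.3%), with 1.15 and 1.96 in the series. Its mean reached 10 TPM in high cells alone (33.5 against 9.99 TPM), so it could only come out higher. Ebp, the sterol isomerase, rested on 4 high and 6 negative cells, and its difference of 1.57 was -4.06 in the cells between the quartiles of detected genes. Below 2-fold but alike in both series were Sqle (0.75 and 0.77), Sc5d (0.85 and 0.58) and Insig1 (0.48 and 0.69), the sterol-regulated retention factor of the endoplasmic reticulum.

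The regulators and carriers of lipid had other values than the enzymes. Srebf2, the transcription factor that drives sterol genes, averaged 102.2 and 104 TPM, and Srebf1, which drives fatty acid genes, 328 and 416 TPM. Abca1, a cholesterol exporter, averaged 49.2 and 63.97 TPM, and the oxysterol receptor Nr1h3 8.56 and 24.1 TPM, the 1 gene of the list 2-fold lower. For a view per cell, 18 sterol synthesis enzymes were summed, a set trimmed after the values were seen: they took from 0.054% to 0.941% of a high cell's TPM (median 0.246%) and from 0.0001% to 0.621% of a negative cell's (median 0.170%). The medians were 0.188% and 0.153% in ogp and 0.307% and 0.190% in ogp2, and most cells of the groups overlapped. The ribosome-rich SVZ cells had a median of 0.116% and the 13 striatum astrocytes 0.088%, and the 4 cortex astrocytes 0.369%.

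**Figure D2:**
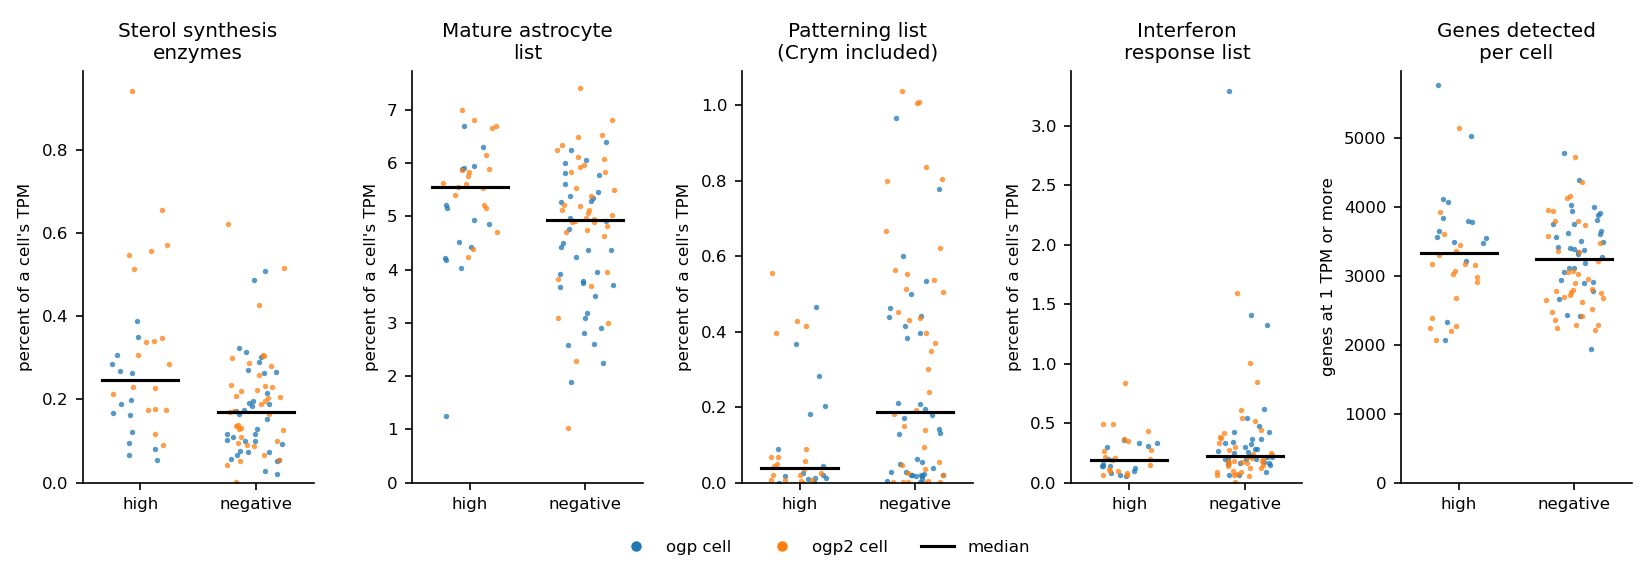
Percent of each cell's TPM in 4 gene lists and the number of genes at 1 TPM or more, for 34 high and 72 negative cells; points are cells coloured by series and the bar is the median. Sterol enzymes have medians of 0.246% in high and 0.170% in negative cells, and the patterning list, Crym included, 0.039% and 0.187%. The number of genes detected has medians of 3332 and 3245.5 pooled.

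To show regulatory sequence of the sterol enzymes, promoters of 3 are given from RefSeq windows of GRCm38.p6, of which 13 of the 18 enzymes had 1 or more (250 bases before to 50 after the start). Printed below are bases upstream of the start for Hmgcs1, an early enzyme of the pathway that holds the only sterol element match, and for Mvd and Hsd17b7, 2-fold higher in both series. Hmgcs1 itself was below 2-fold, with a log2 difference of 0.41 (0.30 in ogp and 0.48 in ogp2), and was found in 21 of 34 and 41 of 72 cells. Capitals mark CCAAT or its complement ATTGG, a box bound by the factor NF-Y, and TCACNCCAC, a form of the sterol regulatory element. For Hsd17b7 the stretch holds 214 of the 250 upstream bases, because the GENCODE gene begins before the RefSeq start, and a further ATTGG lies 12 bases before that start in the bases left out.
Hmgcs1, chr13:119690101-119690350, plus strand: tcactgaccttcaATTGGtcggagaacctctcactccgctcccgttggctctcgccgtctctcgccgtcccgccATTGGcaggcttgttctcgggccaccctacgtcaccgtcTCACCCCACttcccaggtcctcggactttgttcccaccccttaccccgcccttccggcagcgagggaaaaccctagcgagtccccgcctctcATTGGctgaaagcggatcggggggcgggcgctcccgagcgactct
Mvd, chr8:122443423-122443672, minus strand: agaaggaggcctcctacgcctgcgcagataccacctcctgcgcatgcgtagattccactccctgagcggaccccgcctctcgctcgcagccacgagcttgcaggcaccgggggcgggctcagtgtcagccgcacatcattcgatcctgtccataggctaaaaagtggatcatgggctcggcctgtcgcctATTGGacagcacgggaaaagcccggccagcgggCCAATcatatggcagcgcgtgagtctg
Hsd17b7, chr1:169969242-169969455, minus strand: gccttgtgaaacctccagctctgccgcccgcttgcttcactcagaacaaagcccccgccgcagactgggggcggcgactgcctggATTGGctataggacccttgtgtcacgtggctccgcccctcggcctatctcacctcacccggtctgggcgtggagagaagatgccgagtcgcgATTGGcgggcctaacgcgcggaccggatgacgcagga

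Searched on both strands of the 300-base windows, CCAAT was in 13 of 16 windows of these enzymes (81.2%), covering all 13 genes, and in 37.4% of 32851 mouse windows. TCACNCCAC was in 1 of the 16, that of Hmgcs1, 137 bases before the start, and in 1.24% of all windows. The half-site AGAACA of the glucocorticoid receptor was in 3 of the 16 (18.8%) and in 19.0% of all. In the printed stretches no marked matches overlap. All 3 motifs were chosen after the expression values were known, and a match is only a match of letters.

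Most stem cell genes were below 0 when the series were pooled, while the list's share of TPM overlapped between the groups. Of 21 genes listed for SVZ stem cells 17 were below 0 and 4 above, while 45.3% of all genes were above 0. In both series 9 of 21 were below 0, beside 30.6% of all genes. Of the 21, 4 were at least 2-fold lower (19.0%, near the 15.6% of all genes) and 0 higher (9.92% of all genes). The median was -0.43, with -0.49 in ogp and -0.05 in ogp2, where the median of all genes was -0.14 and -0.08. The list took a median of 1.19% of a high cell's TPM and 1.26% of a negative cell's. The members 2-fold lower were Egfr, Vim, Prom1 and Igfbp5. Of these, Egfr and Prom1 reached a mean of 10 TPM in negative cells alone, so they could only come out lower. Egfr, the growth factor receptor of activated stem cells, was at 50 TPM or more in 2 of 34 high and 17 of 72 negative cells and averaged 7.75 and 35.7 TPM, with -2.04 in ogp and -2.03 in ogp2. Vim, the intermediate filament vimentin, averaged 48.5 and 103 TPM, with -0.52 in ogp and -2.98 in ogp2. Prom1, which encodes the sorting marker CD133, was below 1 TPM in all 34 high cells and at 50 TPM or more in 6 of 72 negative cells. Fabp7, a fatty acid binding protein of radial glia, had medians of 0.555 and 97.3 TPM and a difference of -0.76. Gfap or Thbs4, glial genes of a part of the quiescent cells, was detected in 13 of 34 high cells (38.2%) and 31 of 72 negative cells (43.1%). The series differed for Gfap, found in 1 of 15 high and 10 of 35 negative cells of ogp but in 7 of 19 and 7 of 37 cells of ogp2. Thbs4 was found in 3 and 14 cells of ogp and in 4 and 7 cells of ogp2.

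Mature astrocyte genes leaned higher by a small step. Of 33 genes 25 were above 0, against 45.3% of all genes, 1 was 2-fold higher and 0 lower (beside 9.92% and 15.6% of all genes), and the median of 0.17 was alike in ogp (0.18) and ogp2 (0.26). Grin2c, an NMDA receptor subunit of astrocytes, had medians of 76.4 and 31.8 TPM and was in 27 of 34 and 41 of 72 cells, with 0.82 and 0.74 in the series. S100b, the calcium binding protein, was the gene above 2-fold (182 and 84.2 TPM), and its difference was 2.08 in ogp2 but -0.13 in ogp. The water channel Aqp4 (338 and 261 TPM) and the glutamate transporter Slc1a2 (1049 and 951 TPM) differed by 0.37 and 0.14. Gjb6, connexin 30, had medians of 981 and 419 TPM, with -0.02 in ogp and 0.88 in ogp2. Going the other way was Ppp1r3c, a glycogen targeting subunit, at 109.8 and 199 TPM. The whole list took a median of 5.54% of a high cell's and 4.93% of a negative cell's TPM, within overlapping ranges of 1.25% to 7.00% and 1.02% to 7.41%.

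**Figure D3:**
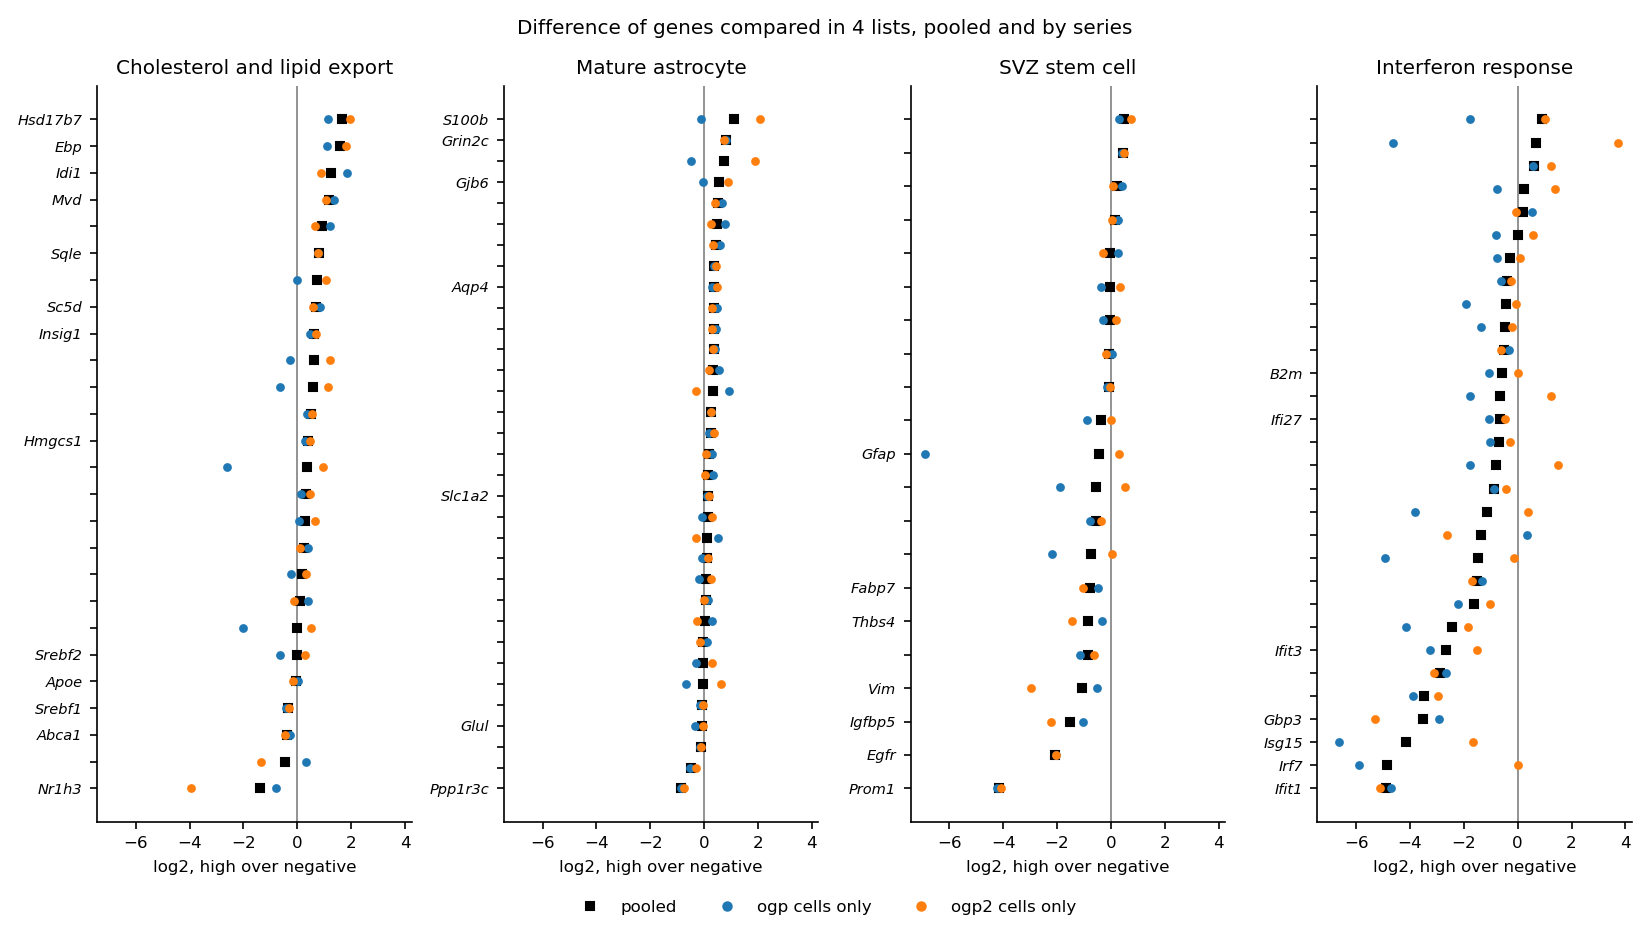
Log2 difference of genes compared in 4 lists, pooled (squares) and within ogp or ogp2 (circles); above 0 is higher in high cells, genes named in the text are labelled, and some genes of the first list are not shown. Over each whole list, 21 of 29 cholesterol and lipid genes and 25 of 33 mature astrocyte genes are above 0 pooled, and the interferon genes are spread widely, with ogp and ogp2 often far apart.

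Interferon response genes leaned lower in high cells, more so in ogp. Of 30 genes 24 were below 0 and 6 above, while 45.3% of all genes were above 0. In both series 17 of 30 were below 0, beside 30.6% of all genes. Of the 30, 13 were at least 2-fold lower (43.3%) and 0 higher, beside 15.6% and 9.92% of all genes. Some of the 13, such as Ifit1 (0.293 against 37.7 TPM) and Isg15 (2.17 against 54.9 TPM), reached 10 TPM in negative cells alone. Such genes could only come out lower, so the count of 13 depends in part on the filter. The median of -0.75 was -1.77 in ogp and -0.23 in ogp2, and -0.24 by the mean of logs. Few cells carried it: Ifit1 was at 50 TPM or more in 0 of 34 high and 6 of 72 negative cells, Gbp3 in 1 and 6, and Isg15 in 1 and 3, and Irf7 was listed at 0 in every high cell and detected in 6 negative cells. Ifit3 averaged 32.2 and 211 TPM with a highest value of 6497 TPM in 1 negative cell. The list's share of TPM ran from 0.052% to 0.833% (median 0.193%) in high cells and from 0.0004% to 3.29% (median 0.220%) in negative cells, so the medians lay close and the upper tail was in negative cells. The 2 widely detected members, chosen after their values were seen, were Ifi27, with medians of 5.35 and 388 TPM in 18 of 34 and 54 of 72 cells, and B2m, with medians of 263 and 431 TPM. B2m was lower in ogp alone, with log2 differences of -1.07 in ogp and 0.02 in ogp2, while Ifi27 had -1.05 and -0.46. The reactive astrocyte list, which shares some of these genes, had 4 of 15 genes 2-fold lower and 2 higher, with a median of -0.77; of all genes 15.6% were 2-fold lower and 9.92% higher.

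The patterning gene Crym was lower in high cells. Crym, the thyroid hormone binding protein mu-crystallin, which marks ventral SVZ and striatal astrocytes (ENSMUSG00000030905, chr7:120186380-120202111), ran from 0 to 5235 TPM (median 1.37) in high cells and from 0 to 10383 TPM (median 1633) in negative cells. At 1 TPM or more it was in 20 of 34 and 48 of 72 cells, and at 50 TPM or more in 16 and 45. Its log2 difference was -1.47, with means of 951 and 1881 TPM in ogp (-0.98) and of 984 and 3454 TPM in ogp2 (-1.81). The 21 patterning genes, Crym included, took a median of 0.039% of TPM in high and 0.187% in negative cells, beside 0.148% in striatum and 0.050% in cortex astrocytes. Of the 10 compared, 2 were 2-fold higher (Nr2f1 and Gsx2) and 3 lower (Crym, Nkx2-1 and Emx2), beside 9.92% and 15.6% of all genes. The median of the 10 was -0.43, or 0.09 by mean logs with 6 above 0, so the members had no common direction. Taken by means, Crym made up most of the list's TPM in both groups. It averaged 2689 TPM beside 0.293% of TPM for the whole list in negative cells, and 970 TPM beside 0.118% in high cells. Medians do not add up over genes, so the medians in high cells, 1.37 TPM for Crym and 0.039% of TPM for the list, give no such share.

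Wnt genes had no common direction. Of 19 genes 2 were at least 2-fold higher (10.5%) and 5 lower (26.3%), beside 9.92% and 15.6% of all genes, and the median was -0.08, or 0.39 by mean logs. Ctnnb1, beta-catenin, averaged 16.4 and 64.8 TPM and was in 5 of 34 and 21 of 72 cells, with -2.24 in ogp and -1.34 in ogp2. Sfrp1, a secreted Wnt inhibitor, averaged 34.8 and 80.1 TPM, while Sfrp5 averaged 61.6 and 63.7 TPM and was found in 12 of 34 and 20 of 72 cells. Sfrp4 was at 50 TPM or more in 4 high cells and below 1 TPM in all 72 negative cells. Fzd2, a Wnt receptor named after its value was seen, was found in 29 of 34 (85.3%, exact 95% interval 68.9% to 95%) and 38 of 72 cells (52.8%, 40.7% to 64.7%), with a difference of 0.84 that was 0.34 in ogp and 1.03 in ogp2.

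Immediate early genes, which rise within minutes of stimulation or dissociation, had the highest list median, 1.07, with 5 of 9 at least 2-fold higher and 1 lower, beside 9.92% and 15.6% of all genes, but few cells held them. Fos reached 22022 TPM in 1 high cell and 12088 TPM in 1 negative cell and was detected in 7 of 34 and 11 of 72. The list's median was 1.44 in ogp and -2.17 in ogp2, and -1.89 without each gene's highest cell in each group.

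**Figure D4:**
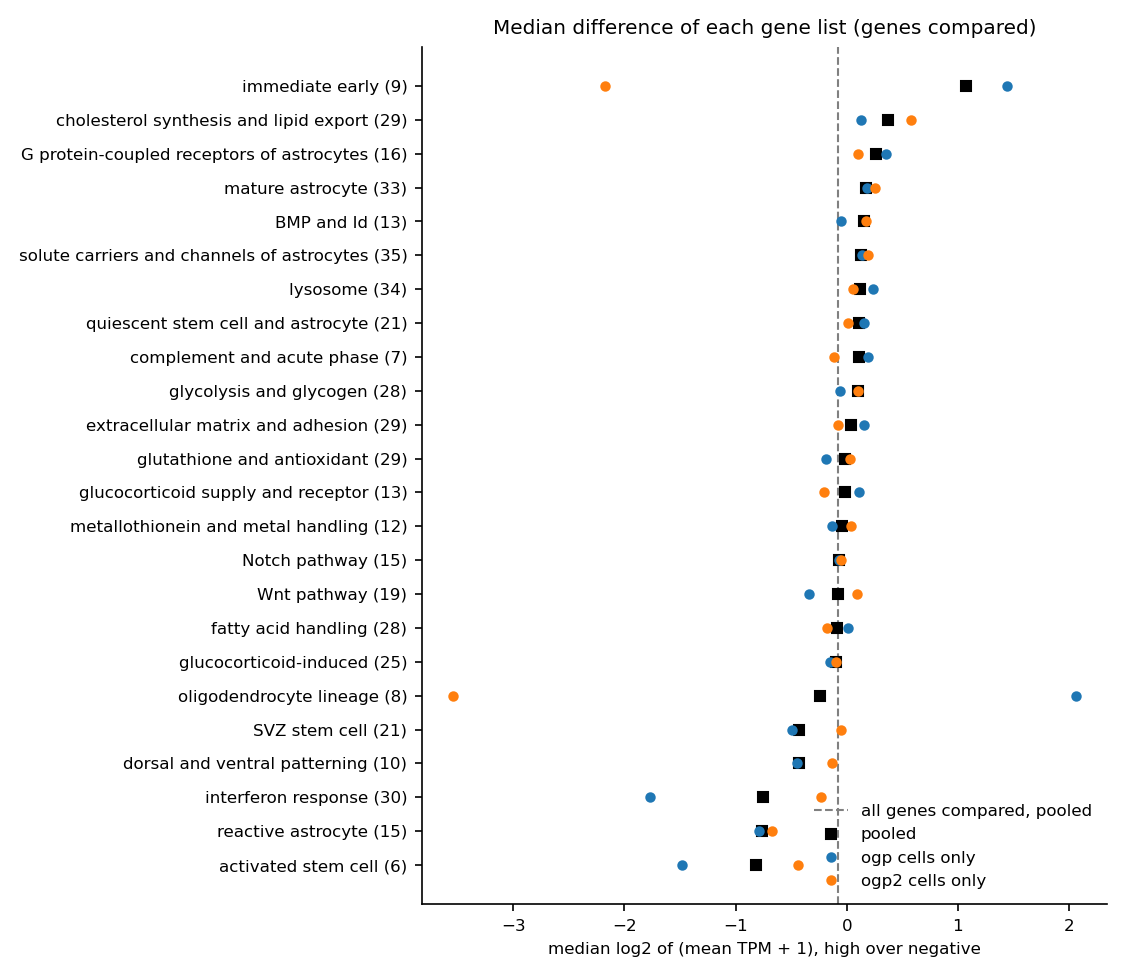
Median log2 difference of each gene list with 5 or more genes compared (number in brackets), pooled (squares) and within ogp or ogp2 (circles); the dashed line is the median of all 8812 genes, -0.08. Cholesterol synthesis lies to the right in both series and the interferon and reactive lists to the left, and the stem cell list is at -0.49 in ogp and -0.05 in ogp2. The immediate early and oligodendrocyte lists change side between series by the most. Several lists nearer 0 change side too, among them Wnt (-0.34 in ogp and 0.09 in ogp2) and glucocorticoid supply (0.11 and -0.21). The lowest pooled median is that of the activated stem cell list (6 genes), -0.82, with -1.49 in ogp and -0.44 in ogp2. That list took a median of 0.063% of a high cell's TPM and 0.059% of a negative cell's.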

How the data were processed

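Single cells were profiled by Smart-seq2. The deposited values are TPM per gene and cell (normalized for gene length and library total). The submitters' processing notes name RSEM 1.2.18, STAR 2.4.0g1 and, as genome build, mm10. The gene annotation is not given in the sources used here. TPM holds no read counts, so no count model and no depth was available. Of 43309 gene identifiers 42425 had a symbol in the reference table of gene names. A symbol given to several identifiers was represented by its most abundant identifier, for 42405 symbols in all. Gene positions are from GENCODE vM21 (GRCm38). The 18 population libraries were not analysed here.

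Columns were rescaled to 1000000. Cells were grouped by Hsd11b1 (50 TPM or more, below 1 TPM) among SVZ cells with under 5% of TPM in ribosomal protein genes. Differences are log2 of the ratio of mean TPM + 1, over genes at 10 TPM or more in either group; 2-fold counts as a call and 1 TPM as detection. Intervals are exact Clopper-Pearson 95%, and cover counting error only. With no animal named, no test was run. Doublets were not called; cells were picked by hand under a microscope, per the labels' protocols. The calculation was tested on simulated data. Python 3.11.15, numpy 2.4.6, pandas 2.3.3 and scipy 1.17.1 were used.

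The members, the 30 gene lists and the 17 alternatives were chosen with earlier results of these data known. Genes were named by the rule stated in the report (up to 15 in each direction, predicted genes counted but not named), among the 4 most different members of a list at 20 TPM or more, or from 16 genes fixed with the design. Others were named after their values were seen: the 3 predicted genes, Mvd, Hmgcs1, Sqle, Sc5d, Insig1, Srebf1, Srebf2, Abca1, Apoe, Ncoa2, Cebpb, Nkx2-1, Gsx2, Nr2f1, Emx2, Prom1, Slc1a2, Ifit3, Ifi27, B2m, Fos, Mt1, Glul, Sfrp1 and Fzd2. Some genes of the lists are counted but not reported here by name.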

Additional observations from a re-analysis of the deposited data

How the results depend on the processing

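The 17 alternatives left the direction and size of most values as they were: 436 list medians and 1296 single-gene values moved by at most 1.5-fold, 22 and 155 moved by more, and 5 and 11 that had been past 1.5-fold or 2-fold changed sign. These counts include settings that could move little or nothing. A high limit of 20 TPM kept the same 34 and 72 cells, so its values were fixed in advance, and a limit of 100 TPM kept 33 high cells. The genes 2-fold higher and lower (874 and 1375) were 367 and 675 with 10 TPM added, 574 and 282 by mean logs, 1794 and 3266 with a minimum of 1 TPM, 321 and 446 with 10 TPM needed in both groups, 1617 and 2202 in ogp alone, 1464 and 1988 in ogp2 alone, 486 and 1613 without each gene's highest cell, and 1330 and 2152 in the 17 high and 35 negative cells between the quartiles of detected genes. The latter 4 use fewer cells. The interferon median was -1.78 in ogp alone. The immediate early median (1.07) was 0.10 by mean logs, 0.31 with 10 TPM in both groups, 2.17 on deposited values, 2.35 without cells of low column sum, -2.14 in ogp2 alone, -1.89 without the highest cell and 5.30 between the quartiles. The ependymal median (3 genes, 0.64) was -2.33 with a minimum of 1 TPM, -1.90 in ogp2 and -1.10 between the quartiles.

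The single genes of these were S100b (-0.13) in ogp, Fos (-2.17), Junb (-4.49) and Zfp36 (-3.35) in ogp2, and -1.89, -2.44 and -0.30 without the highest cell, and Thrsp (-0.23), Ebp (-4.06), Hif3a (-0.82) and Dusp1 (0.19) between the quartiles. The causes were not tested. No paired analysis was possible because the cell numbers only name cells and no test was run. Depth is unknown, so a gene at 0 in a cell may have been missed.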

Other observations

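Of 34 lysosomal genes 26 were above 0 (45.3% of all genes were) but only 2 were 2-fold higher and 2 lower (5.88% each, below the 9.92% and 15.6% of all genes), and the median was 0.12 (0.24 in ogp and 0.06 in ogp2) or 0.57 by mean logs, against 0.06 for all genes on that scale. The list took 0.547% to 1.30% of a high cell's TPM (median 0.856%) and 0.277% to 1.46% of a negative cell's (median 0.779%). Tfeb, the transcription factor of lysosomal genes, averaged 24.4 and 3.97 TPM and was detected in 7 of 34 and 5 of 72 cells, with 1.94 in ogp and 2.35 in ogp2. Asah1, acid ceramidase, was found in 29 of 34 (85.3%, exact 95% interval 68.9% to 95%) and 42 of 72 cells (58.3%, 46.1% to 69.8%), with medians of 292 and 123 TPM. Gusb, beta-glucuronidase, went the other way, at 12.02 and 54.01 TPM.

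Among receptors of astrocytes, the adenosine receptors Adora1 (50.6 and 26.6 TPM) and Adora2b (123 and 64.4 TPM) were nearly 2-fold higher in high cells, above 0 in both series, while 0 of 16 receptor genes passed 2-fold upward and 1, Celsr2, was lower. The fatty acid handling list held 0 of 28 genes past 2-fold in either direction. Of all genes 9.92% were 2-fold higher and 15.6% lower. Tfeb and Gusb were named as among the 4 most different genes of their list, so by their values in these same cells. The other genes named here were singled out after their values were seen, and no difference was tested.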
